A study of Mus musculus with 12 samples.

Results

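The genes described here handle iron in the cell, and they were taken by name from the deposited tables as Ftl1, Fth1, Tfrc, Slc40a1, Slc11a2, Steap3, Ireb2, Aco1, Ncoa4 and Slc39a14. All 10 genes were among the 25239 genes of the expression table, and they carried 1 of the 2643 m6A peaks of the methylation table. The cells were HT22, an established wild-type mouse line of hippocampal origin. They were either treated with mesaconitine (MA), a diterpenoid alkaloid of Aconitum plants, or kept as control cells, whose vehicle the labels do not name. The study reports that MA was dissolved in DMSO and that the dose used for sequencing lowered cell viability. MeRIP-seq was carried out on both, with 3 anti-m6A IP libraries and 3 input libraries per condition, 12 in all. Every value below is pooled over libraries by the authors, so no spread between replicates is known and no test between conditions was possible.

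Iron enters cells bound to transferrin through the transferrin receptor, is reduced in the endosome and crosses its membrane through a divalent metal transporter. What is not used is stored inside ferritin shells of heavy and light chains, and a cargo receptor hands ferritin to the lysosome when iron is needed. A single exporter, ferroportin, carries iron out of the cell. Iron regulatory proteins bind short RNA hairpins, the iron-responsive elements, when iron is low. An element in the 5′UTR then blocks translation of the mRNA, and elements in the 3′UTR protect it from decay. m6A, a methyl group on adenosine in mRNA, is a separate mark that is read by other proteins.

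The hairpins are shown first because they occur in both ferritin genes, the transferrin receptor gene and the exporter gene. They were searched for in the untranslated regions of GENCODE M21 transcripts. The pattern was the loop CAGTGN, a stem of 5 base pairs closing it (G-T pairs allowed), and a C directly before the stem. Whether this C could pair was not checked. Only the transcribed strand was read, and an element was counted from this C to the end of the stem. Such an element was found in 4 of the 10 genes and in 160 of 21877 coding genes (0.731%). The loop letters alone occurred in an untranslated region of all 10 genes and of 75.1% of coding genes. The searched pattern is the known form of this element in iron genes, so its presence here is a description and not a result of these data. Capitals mark the loop in each element, and sequences run 5′ to 3′ on the transcript (GRCm38).
Fth1, 5′UTR, chr19:9982732-9982760, plus strand: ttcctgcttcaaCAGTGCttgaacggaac
Ftl1, 5′UTR, chr7:45459779-45459807, minus strand: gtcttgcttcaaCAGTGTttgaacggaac
Slc40a1, 5′UTR, chr1:45925465-45925493, minus strand: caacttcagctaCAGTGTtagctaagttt
Tfrc, 3′UTR, chr16:32631219-32631247, plus strand: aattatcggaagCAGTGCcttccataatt
Tfrc, 3′UTR, chr16:32631598-32631626, plus strand: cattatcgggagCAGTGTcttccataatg
Tfrc, 3′UTR, chr16:32631663-32631691, plus strand: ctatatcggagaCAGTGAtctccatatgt
Tfrc, 3′UTR, chr16:32631710-32631738, plus strand: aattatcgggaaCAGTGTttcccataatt

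The 2 ferritin genes and the exporter gene held 1 element each before the start codon, and Tfrc held 4 after the stop codon. On the transcripts Ftl1-201 and Fth1-201 the elements ended 154 and 116 bases before the start codon, and on Slc40a1-201 the element ended 208 bases before it. The 4 elements of Tfrc-201 began 889 to 1380 bases after the end of the coding sequence. With 1 of the 5 pairs allowed to be open, a looser search chosen after the first result was seen, Slc11a2 joined as the fifth gene, while the share of coding genes rose to 4.90%. Its hairpin began 38 bases after the coding sequence of the transcript Slc11a2-205, and it was not found on Slc11a2-201, which ends in a different last exon.
Slc11a2, 3′UTR, chr15:100395153-100395181, minus strand: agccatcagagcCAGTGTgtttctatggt

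None of these hairpins overlapped a listed m6A peak. Fth1, Ftl1, Slc40a1 and Tfrc had no listed peak, so for their hairpins this outcome was fixed in advance. The only peak on these genes lay in the coding sequence of Slc11a2, outside its 3′UTR hairpin. The absence of overlap therefore says nothing about m6A and the hairpins. No element was found by either search in Steap3, Ireb2, Aco1, Ncoa4 or Slc39a14.

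The level of each gene was read from the base mean, which is the mean count over libraries after division by each library's size factor. It merges control and MA-treated cells, and which libraries entered it is not given in the sources used here. A base mean above 0 was listed for 16178 genes, with a median of 528. All but 1 of the 10 genes lay above this median, the exception being Slc40a1. To compare levels between genes, the base mean was divided by the length of the longest coding transcript of the gene in kb. On this scale 7 of the 10 genes lay above the median of 256 over 14020 coding genes, and the highest of them was 344 times the lowest.

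The storage genes stood far above the rest. Fth1, which encodes the ferritin heavy chain with its ferroxidase centre, had a base mean of 68178, the 35th highest of all genes, and 45635 per kb. Ftl1, the ferritin light chain that favours formation of the iron core, had a base mean of 15380 and 15889 per kb. The level per kb of Fth1 was 2.87 times that of Ftl1, and 1.71 times when all exons of each gene were counted in the length. Ftl1 has many processed copies in the mouse genome. Of the 50-base stretches in its transcript, 78.9% also occurred in annotated transcripts of 15 other genes, with 73.4% in the pseudogene Ftl1-ps1 alone. For Fth1 the share was 4.01%, all in Gm6977. No base mean was listed for Ftl1-ps1 or Gm6977. How the authors' counting treated reads from shared stretches is not given in the sources used here. The level of Ftl1, and with it the ratio of both chains, is therefore uncertain.

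Ncoa4, the receptor that delivers ferritin to autophagosomes, had a base mean of 2012 and a level of 495 per kb. Its level is uncertain in the same way, because 43.1% of its stretches recurred in Gm6768, for which no base mean was listed either. With all exons of each gene counted in the length its level was 215 per kb, and it moved from the 64.4th to the 54.3rd percentile of coding genes.

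Among the uptake genes, Tfrc was highest. It encodes the transferrin receptor and had a base mean of 3980, or 814 per kb, higher than 75.4% of coding genes. Slc11a2, which encodes the divalent metal transporter DMT1, had a base mean of 1517 and 344 per kb. The endosomal ferric reductase gene Steap3 had a base mean of 1068 and 207 per kb. Slc39a14, whose product ZIP14 takes up iron not bound to transferrin, had a base mean of 950 and 193 per kb. Slc11a2 was above the median coding gene per kb and the last 2 genes were below it, but Steap3 moved from the 46.1st to the 51.5th percentile when all exons were counted. None of Tfrc, Slc11a2 and Steap3 shared a stretch of 50 bases with another gene, and Slc39a14 shared 0.410% of its stretches.

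The exporter gene Slc40a1, which encodes ferroportin, was the lowest of the 10, with a base mean of 447 and 132 per kb. The level of Tfrc per kb was 6.14 times that of Slc40a1, and 13.0 times when all exons were counted. The 2 iron regulatory proteins are encoded by Aco1 (IRP1, which doubles as cytosolic aconitase when it carries an iron-sulfur cluster) and Ireb2 (IRP2, which is degraded when iron is plentiful). Ireb2 had a base mean of 4216 and 731 per kb, and Aco1 had a base mean of 1182 and 308 per kb. The ratio of Ireb2 to Aco1 per kb was 2.37 on the longest transcripts and 1.69 over all exons. In order of level per kb the genes were Fth1, Ftl1, Tfrc, Ireb2, Ncoa4, Slc11a2, Aco1, Steap3, Slc39a14 and Slc40a1. With all exons counted, Aco1 (263 per kb) came before Slc11a2 (239) and Slc11a2 before Ncoa4 (215). Since no spread between libraries is known, it cannot be said which neighbours in this order differ.

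**Figure D1:**
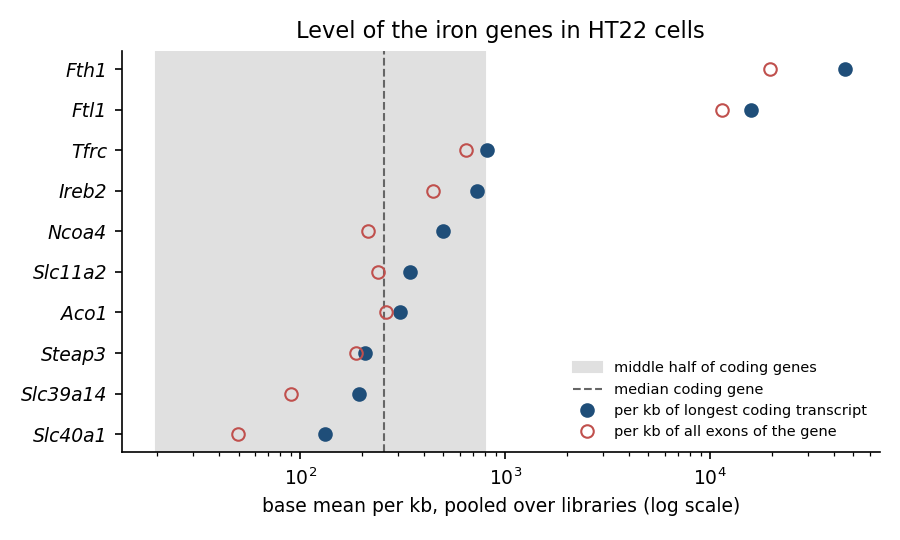
Level of the 10 iron genes as base mean per kb on a log axis, per kb of the longest coding transcript (filled points) or of all exons of the gene (open points). The grey band and dashed line give the range between the quartiles and the median (256) of coding genes by the longest transcript, and Fth1 and Ftl1 lie far to the right of both with 45635 and 15889.

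The only m6A peak listed for these genes in the table used here lay on Slc11a2. The study describes more peaks than this table lists, and how the listed ones were chosen is not given in the sources used here. Peaks outside it were not analysed, so every share, median and percentile of peaks holds for the listed peaks only. Of the 8390 genes whose base mean was within the range of the 10, from 447 to 68178, 1557 carried a peak (18.6%), so the share of 1 in 10 says nothing particular about the iron genes. That 9 genes have no listed peak does not show that their mRNAs lack m6A. The peak spans chr15:100402347-100403217 on the minus strand (mm10), which is 871 bases of genome. Only 75 of them are exonic, 37 bases at the end of exon 10 and 38 bases at the start of exon 11 of the transcripts Slc11a2-201 and Slc11a2-205, and the other 796 bases are the intron between. All 75 bases are coding. The midpoint of the peak lay 716 bases before the end of the coding sequence of Slc11a2-201 and 695 bases before that of Slc11a2-205. On Slc11a2-205 the midpoints of the peak and of the hairpin lie 741 bases apart on the mRNA. The exons under the peak are common to both transcripts, so its reads do not tell them apart.

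**Figure D2:**
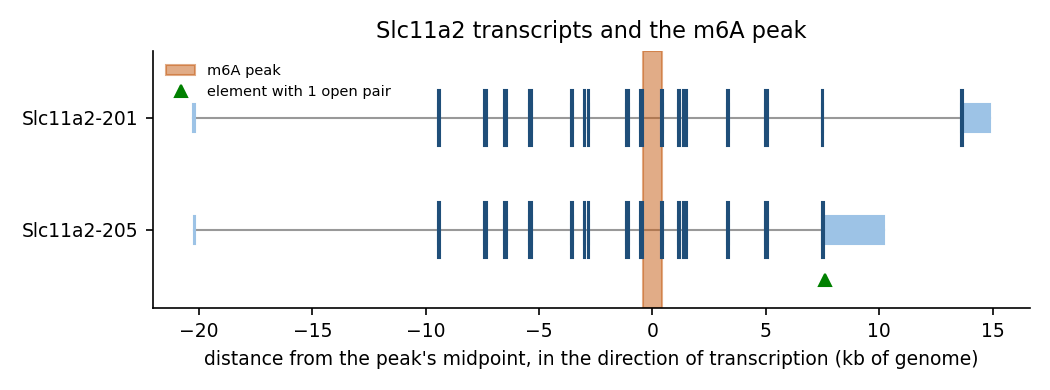
Exons of 2 coding transcripts of Slc11a2 (dark boxes coding, light boxes untranslated) by distance in kb of genome from the midpoint of the m6A peak, with transcription running to the right. The peak (orange) covers the junction of exons 10 and 11 in both transcripts, and the hairpin with 1 open pair (triangle) lies only on Slc11a2-205, just after its stop codon.

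A peak of 75 exonic bases was common, with 480 of the 2514 peaks on coding transcripts (19.1%), and 32.4% of peaks reached over more than 1 exon. The midpoint of 56.6% of peaks lay in coding sequence, as it did here. The 75 bases held 2 matches to DRACH, the letters around most m6A sites (D is A, G or T, R is A or G, H is A, C or T), and 74.0% of the 480 peaks of the same exonic length held at least 1. Matches were counted on the transcribed strand only. The stricter RRACH matched once and GGACT not at all. The matches lie on either side of the exon junction and are shown with their neighbouring bases, motif in capitals.
Slc11a2, exon 10, chr15:100403181-100403209, minus strand: cattttttgagaAAACCaacaagcaggtg
Slc11a2, exon 11, chr15:100402351-100402379, minus strand: agtctgcaaaaaTAACAgcagcccccatg

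The pooled reads in the Slc11a2 peak numbered 103 in control input (exact Poisson 95% interval 84.1 to 125), 75 in control IP (59.0 to 94.0), 69 in MA input (53.7 to 87.3) and 144 in MA IP (121 to 170). MA IP was therefore the highest of the 4 counts and the only one above control input. These intervals and all that follow cover counting error only. IP reads made up 42.1% of the reads of control cells (exact Clopper-Pearson 95% interval 34.8% to 49.7%) and 67.6% of those of MA-treated cells (60.9% to 73.8%), and both intervals lie apart.

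**Figure D3:**
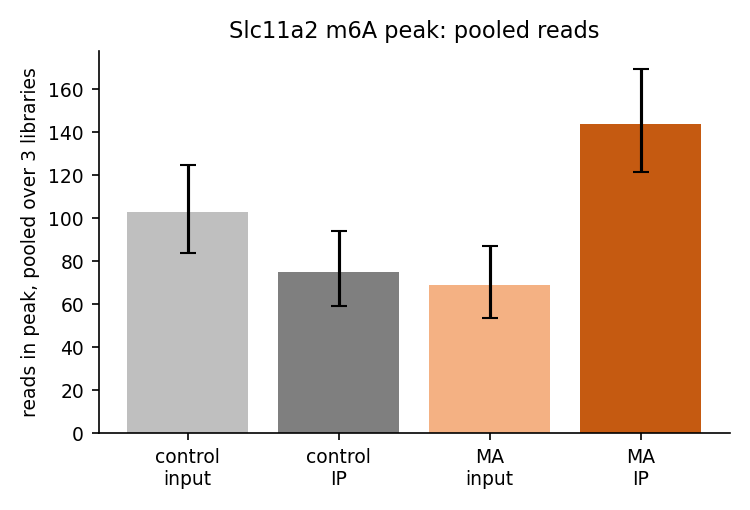
Reads in the Slc11a2 peak, each bar pooled over the 3 libraries of 1 group, with exact Poisson 95% intervals for counting error. The bar for MA IP (144) is the highest and that for MA input (69) the lowest.

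A shift in the same direction was seen over all listed peaks. The depth of the libraries is unknown, and the reads in all peaks together were 288659 in control input, 267002 in control IP, 214778 in MA input and 359889 in MA IP. The change of the IP to input ratio from control to MA had a median of 0.90 on the log2 scale over all 2643 peaks. Whether depth, the yield of the IP or m6A itself moved this median cannot be told apart in these counts. Values for single peaks were centred on the median peak, and so are relative to it, with 0.5 reads added to each count. After centring, the ratio of the Slc11a2 peak was higher in MA-treated cells by 0.61 on the log2 scale (standard error 0.30, 95% interval 0.013 to 1.202), a change of 1.52-fold. The lower end of the interval lay close to 0, and counting error alone is included in it. Such an interval lay wholly above 0 in 22.5% of all listed peaks and wholly below 0 in 22.6%. Without centring the change was 1.51 on the log2 scale.

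The centred change exceeded 1.2-fold. Of all listed peaks, 39.5% were more than 1.2-fold higher and 38.4% more than 1.2-fold lower, so such a change was common among them in both directions. The Slc11a2 peak was at the 73.3rd percentile of all peaks. It was at the 73.7th percentile of the 638 peaks with a similar number of reads (within 1.5 times), whose quartiles were -0.50 and 0.65 on the log2 scale. The change after MA treatment was thus within the upper part of the range of the listed peaks and not set apart from them.

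Seen by group, control cells had a centred IP to input ratio of -0.39 on the log2 scale (95% interval -0.82 to 0.03), lower than in most peaks, at the 17.9th percentile. In MA-treated cells it was 0.19 (-0.23 to 0.60), at the 61.9th percentile. The input reads of the peak, centred on the median peak, differed by -0.11 on the log2 scale between MA and control (-0.55 to 0.33), while the IP reads differed by 0.47 (0.07 to 0.88). The larger of both differences was thus in the IP reads. Input reads in 75 bases are not a measure of the expression of the gene.

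The other genes of iron handling were taken as a list of 61, of which 57 had a base mean above 0 and 38 one at least as high as Slc40a1. The median base mean splits the genes above 0 evenly, but the counts by role also include genes listed at 0. Of all 25239 listed genes only 16178 were above 0, so fewer than an even share of them reached the median. Roles were not tested against each other. Of the 11 genes of haem synthesis and breakdown, 10 lay at or above the median base mean of 528, as did 8 of 11 genes for iron-sulfur clusters and 7 of 10 genes for haem and iron transport. Of 8 chaperone and control genes 5 did, among them Pcbp2, a protein that hands iron to ferritin, with a base mean of 24927. Of 7 reductase and ferroxidase genes 3 did, and of 3 genes of lipid peroxidation 2 did. Of the 11 genes for systemic control and iron carriers none reached the median, and 3 of them were listed at 0. The highest of these was Lcn2, a siderophore-binding protein, with a base mean of 219.

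Of the 61 genes 8 carried a peak, with 9 peaks in all. The share of 18.6% given above is for genes with a base mean from 447 to 68178. Only 38 of the 61 reached that range. All 8 genes with a peak were among them, from Slc39a8 with a base mean of 515 to Herc2 with 8872. A count of 8 in 38 is not far from 18.6%, and the difference was not tested. Mcoln1 carried 2 of the 9 peaks and encodes TRPML1, a channel through which iron leaves the lysosome. Like DMT1 it is a route for iron out of an acidic compartment. The peak in its coding sequence (chr8:3505779-3505828) held 638 reads in control input, 410 in control IP, 386 in MA input and 817 in MA IP, and the centred change was 0.81 on the log2 scale (95% interval 0.56 to 1.06). The peak in its 5′UTR (chr8:3500544-3500618) held 452, 334, 255 and 561 reads in the same order, with a centred change of 0.67 (0.37 to 0.96). Both intervals overlap that of the Slc11a2 peak. All 3 peaks had fewer IP than input reads in control cells and more after MA treatment. So did the peaks on Alas1, Herc2, Steap2, Isca1 and Hmox2, but not those on Slc25a37 and Slc39a8. The share of all listed peaks with this pattern was not counted. The median peak also went from -0.06 to 0.87 in the uncentred log2 ratio.

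After centring, 6 of the 9 peaks were more than 1.2-fold higher after MA treatment, on Alas1, Herc2, Steap2, Isca1 and Mcoln1, where 39.5% of all peaks were. The 4 largest of these changes had 3 to 21 reads in MA input, where the median peak had 40. The peak of Alas1, which encodes the first enzyme of haem synthesis outside red cells, had a centred change of 2.73 on the log2 scale (0.92 to 4.53) with 3 reads in MA input. The peak of Steap2, a metalloreductase related to Steap3, had one of 2.09 (0.56 to 3.62) with 8 reads there. Herc2, a ubiquitin ligase that acts on Ncoa4, had 2.22 (1.01 to 3.44) with 9, and Isca1, which acts in iron-sulfur cluster assembly, had 1.67 (0.75 to 2.58) with 21.

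More than 1.2-fold lower were 2 of the 9 peaks, where 38.4% of all listed peaks were. Without centring neither of the 2 was lower. Slc39a8, whose product ZIP8 is the closest relative of ZIP14, had -0.90 (-1.51 to -0.29) centred and 0.0040 uncentred. Hmox2, the constitutive haem oxygenase, had -0.29 (-0.70 to 0.11) centred and 0.61 uncentred. The peak of Slc25a37, a mitochondrial iron importer, lay between the thresholds with 0.25 (-0.59 to 1.09).

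**Figure D4:**
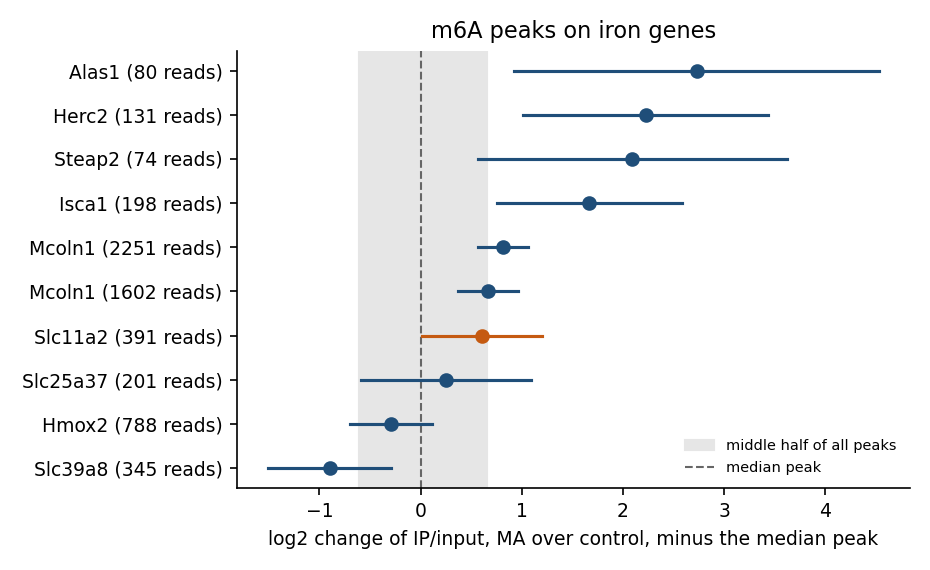
Log2 change of the IP to input ratio from control to MA, centred on the median of all peaks, for the Slc11a2 peak (orange) and 9 peaks on other iron genes (blue), with 95% intervals for counting error and the reads of all 4 groups in brackets. The Slc11a2 value of 0.61 lies between those of Mcoln1 and Slc25a37 and between the quartiles of all peaks (grey).

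The label of the cells was checked on the same base means. Of all 25239 listed genes, 16178 had a base mean above 0 and 12435 one of 10 or more. Of 12 neuronal markers 7 were listed at 0, among them Map2, Snap25 and Nefl, and only Tubb3 and Syn1 reached 10, with 473 and 710. Of 7 fibroblast markers 5 reached the median base mean, and Col1a1, Col1a2, Col3a1 and Vim among them had base means from 100160 to 134804, while Dcn had 145 and Lum 1.35. No marker of astrocytes, microglia, oligodendrocytes or endothelium reached the median, and the highest were Tmem119 with 303 and Slc1a2 with 115. No erythroid or hepatocyte marker reached 10. The iron genes were thus measured in cells with few neuronal transcripts, and the part of this in their levels was not tested.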

How the data were processed

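Libraries were stranded and carried molecular identifiers, per the labels. The authors used fastp for reads, HISAT2 for alignment (mm10), StringTie and DESeq2 for expression, and exomePeak2 for m6A peaks. Versions are not given in the sources used here. The authors deposited a base mean for each gene, a normalized signal pooled over libraries, and the counts of reads per peak, pooled over the 3 libraries of each of 4 groups. Both tables also hold the authors' own comparisons (fold changes, their errors, test statistics, p-values, ratios of IP to input). These were neither used nor printed, so expression was not compared between MA and control. Columns of single libraries left out numbered 0.

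Genes were taken by symbol, and all 10 matched GENCODE M21 (GRCm38, the assembly of mm10), which gave lengths, exons and sequences. A peak was placed on the coding transcript of its gene with most exonic overlap, which worked for 2514 of 2643 peaks. Log2 ratios of pooled counts used a pseudocount of 0.5 and were centred on the median peak, with normal 95% intervals from counting error. A change was set against a threshold of 1.2-fold. Intervals for single counts and shares were exact. The ratio and hairpin functions were tested on simulated data. The design called for a count model on single libraries, which could not be run. All 10 genes are named, and other iron genes where they have a peak. From the list of other iron genes, 1 gene was taken out of all counts and is not reported here. Marker genes, Pcbp2 and Lcn2 were named after their values were seen. The genes and lists were chosen with earlier results of these data known. Scripts ran in Python 3.11.15 with scipy 1.17.1, pandas 2.3.3 and numpy 2.4.6, and figures were drawn with matplotlib 3.10.9.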

Additional observations from a re-analysis of the deposited data

How the results depend on the processing

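No paired analysis was possible because the deposited values are pooled over replicates, and for the same reason no replicate could be left out and no count model was run. Without centring, 2021 peaks were more than 1.2-fold higher and 318 lower after MA treatment, against 1043 and 1014 with it. The change of the Slc11a2 peak was then 1.51 and its unscaled IP to input ratio in MA-treated cells 1.06 on the log2 scale, and the changes on Hmox2 and Slc39a8 turned to 0.61 and 0.0040. Under the other scalings, pseudocounts and read filters, the change of the Slc11a2 peak ran from 0.59 to 0.65, where the lowest value came from a comparison with peaks of similar depth added after seeing the data. The Slc11a2 peak held 1 RRACH and 0 GGACT in place of 2 DRACH. The 7 hairpins became 56 matches by the loop letters alone. The percentile of the level moved by 5 points or more in 10 of 20 recalculations over the 10 genes. These ranked each gene only among genes with a base mean of at least 10, or counted all exons in the length. The first leaves out low genes, so it must lower every percentile and changes no level. With all exons counted, Slc40a1, Steap3, Ncoa4 and Slc39a14 moved this far.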
